A study of Homo sapiens with 4 samples.

Results

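Cell cycle and DNA replication genes were examined for STARR-seq peaks in MDA-MB-231, a human triple-negative breast cancer line. The group held 39 protein-coding genes, fixed by name and all found in the RefSeq table of GRCh38, out of 19974 protein-coding genes on chromosomes 1 to 22 and X. A peak was counted for a gene when its summit, the position of highest coverage, lay inside the gene or within 10 kb of either end. In STARR-seq, genomic fragments sit in a plasmid downstream of a minimal promoter, so that an active fragment is transcribed into its own reporter RNA. A peak therefore reports fragments or RNA that align near a gene, and not the expression of that gene. All cells were transfected with 1 plasmid library made from sheared MDA-MB-231 DNA, after medium with DMSO, 10 µM SHP1705, a stabilizer of the clock repressor CRY2, 100 nM MG132, a proteasome inhibitor, or both drugs had been added, and reporter RNA was taken at 8 h.

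Each treatment had 1 library and 1 peak list, so differences between lists compare libraries and have no replicate check. By the headers the DMSO library held 29717604 fragments, the SHP1705 library 118324303, the MG132 library 27289266 and the library of both drugs 28331486. The smallest pileup called, as fragments over the summit, was 13 for DMSO, 28 for SHP1705, and 12 both for MG132 and for the drugs combined. Divided by the fragments of the library and multiplied by 1000000 (FPM below), these were 0.437, 0.237, 0.440 and 0.424. The SHP1705 list thus reached lower relative heights, and its peaks could be as narrow as 299 bp, against 346 to 355 bp elsewhere. No plasmid input library was used in peak calling, so fragment abundance in the plasmid pool and reporter activity cannot be told apart.

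Progress through the cell cycle is driven by cyclins and the cyclin-dependent kinases (CDKs) that they activate. At the G1/S boundary, cyclin D with CDK4 or CDK6 and cyclin E with CDK2 phosphorylate the RB protein, which frees E2F factors to switch on genes for DNA replication. Genes of G2 and mitosis are switched on later, through promoters that carry CCAAT boxes bound by NF-Y and CHR elements (cell cycle genes homology region) bound by the MuvB complex. The proteasome, which MG132 inhibits, degrades cyclins and other regulators at fixed points of the cycle. The 39 genes were split into 21 G1/S genes and 18 G2/M genes by their textbook phase.

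The promoters of these genes carried the words known from textbooks, while the peaks seldom covered them. The 250 bases before the annotated start were read for 30 members, 15 G1/S and 15 G2/M, and for 14541 protein-coding genes in all, from the RefSeq promoter table of GRCh38.p14. They are shown for the 3 members whose promoter was touched by a peak (CCNB1, E2F1 and TYMS, all in SHP1705) and for 2 mitotic genes with no peak there (PLK1 and CCNB2). Capitals mark matches on either strand. The CCAAT box was searched as CCAAT. The CHR words were TTTGAA and its variant TTCGAA. The E2F words were TTGGCGC, its variant TTCGCGC, the variant TTCCCGC and also the variant TTGCCGC. Each sequence is written from its far end toward the start of the gene, 5′ to 3′ on the strand of the gene.
CCNB1 (chr5:69166900-69167149, plus strand): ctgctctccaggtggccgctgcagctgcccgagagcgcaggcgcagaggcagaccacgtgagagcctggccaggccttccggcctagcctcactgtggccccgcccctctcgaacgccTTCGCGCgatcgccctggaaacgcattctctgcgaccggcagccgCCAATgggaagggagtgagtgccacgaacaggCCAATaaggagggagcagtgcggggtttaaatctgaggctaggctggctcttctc
E2F1 (chr20:33686386-33686635, minus strand): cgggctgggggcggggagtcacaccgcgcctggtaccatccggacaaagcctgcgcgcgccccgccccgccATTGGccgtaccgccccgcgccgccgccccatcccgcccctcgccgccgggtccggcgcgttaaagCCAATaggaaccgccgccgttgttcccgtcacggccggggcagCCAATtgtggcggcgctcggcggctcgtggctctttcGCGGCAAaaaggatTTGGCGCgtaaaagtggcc
TYMS (chr18:657403-657652, plus strand): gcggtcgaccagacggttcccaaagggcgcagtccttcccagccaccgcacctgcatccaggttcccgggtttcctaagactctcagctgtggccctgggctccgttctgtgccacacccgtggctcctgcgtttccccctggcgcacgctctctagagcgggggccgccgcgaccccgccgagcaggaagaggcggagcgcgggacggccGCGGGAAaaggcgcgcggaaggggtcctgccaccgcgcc
PLK1 (chr16:23678639-23678888, plus strand): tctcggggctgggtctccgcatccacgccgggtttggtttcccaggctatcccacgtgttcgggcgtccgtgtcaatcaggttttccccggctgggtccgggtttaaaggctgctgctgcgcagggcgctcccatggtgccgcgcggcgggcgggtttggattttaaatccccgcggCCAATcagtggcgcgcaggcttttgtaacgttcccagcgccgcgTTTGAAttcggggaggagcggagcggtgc
CCNB2 (chr15:59104896-59105145, plus strand): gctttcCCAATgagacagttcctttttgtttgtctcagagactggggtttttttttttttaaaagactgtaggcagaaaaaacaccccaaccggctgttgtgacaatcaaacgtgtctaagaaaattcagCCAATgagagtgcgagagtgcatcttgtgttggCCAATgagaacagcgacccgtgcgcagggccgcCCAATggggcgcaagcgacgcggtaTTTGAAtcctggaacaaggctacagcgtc

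The E2F words stood in 10 of 15 G1/S promoters (66.7%, Wilson 95% interval 41.7 to 84.8) and in 5 of 15 G2/M promoters (33.3%, 15.2 to 58.3), against 14.6% of all promoters of that length. CHR words stood in 1 of 15 G1/S promoters (6.67%, 1.19 to 29.8), that of MCM6, and in 8 of 15 G2/M promoters (53.3%, 30.1 to 75.2), against 11.9% of all. These 8 were BUB1B, CCNB2, CDC20, CDK1, CENPA, MKI67, PLK1 and TOP2A. CCAAT was found in 8 of 15 G1/S promoters (53.3%, 30.1 to 75.2) and 13 of 15 G2/M promoters (86.7%, 62.1 to 96.3), against 34.8% of all. The E-box CACGTG, a word that the clock activators CLOCK and BMAL1 bind and that MYC also binds, stood in 6 of 30 promoters (20%, 9.51 to 37.3), against 7.89% of all. The 6 were those of CCNB1, CDK4, CENPF, MCM2, MCM7 and PLK1. Matches on both strands were counted and overlapping matches were counted separately. A match describes the letters and does not show that a factor binds. The intervals treat promoters as independent and cover counting error only.

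**Figure D1:**
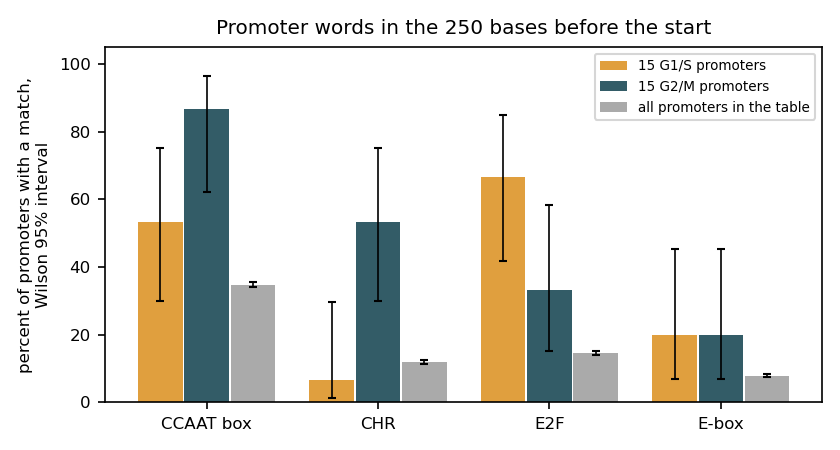
Percent of promoters (vertical axis, bars from 0, with Wilson 95% intervals) that hold at least 1 match to each word in the 250 bases before the start, for 15 G1/S members, 15 G2/M members and all 14541 promoters in the table. E2F words were found in 66.7% of the G1/S promoters and CHR words in 53.3% of the G2/M promoters, against 14.6% and 11.9% of all promoters.

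No peak summit of any list lay in these 250 bases at any of the 30 members. SHP1705 peaks touched the window by at least 1 bp at 3 of 30 members (10.0%, 3.46 to 25.6), against 12.1% of all promoters, and DMSO, MG132 and combination peaks touched it at 0 of 30, against 1.20%, 1.49% and 1.35%. A count of 0 of 30 leaves an upper Wilson bound of 11.4%, so a rate like that of all promoters was not detectable with 30 genes. The CCNB1 peak had its summit 49 bp after the start and a pileup of 82 fragments. At E2F1 and TYMS the summits lay 155 and 142 bp after the start, with 369 and 477 fragments. The E2F1 peak ended at base 33686386, the edge of its window, and the TYMS peak began at 657636, near the window end of 657652. At PLK1, counted as untouched, a SHP1705 peak began at 23678894, just past the window end of 23678888. A few bases thus decided which of these 3 promoters counted as touched.

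Peaks were found near every member in SHP1705 and near about as many members as other genes in the remaining lists. SHP1705 had a peak at 39 of 39 members (Wilson 95% interval 91.0 to 100.0%), where 88.4% of all protein-coding genes had one. MG132 had peaks at 27 members (69.2%, 53.6 to 81.4), against 71.3% of all genes. The combination had them at 22 (56.4%, 41.0 to 70.7), against 64.0%, and DMSO at 21 (53.8%, 38.6 to 68.4), against 58.8%. In each list the background share lay inside the members' interval except in SHP1705, where it lay just below. Members were shorter than other genes, with a median of 16.5 kb against 24.2 kb, which makes the window smaller. Among the 5105 genes between 11.2 and 30.5 kb, the middle of the members' lengths, SHP1705 had a peak at 89.7%, MG132 at 66.9%, the combination at 56.4% and DMSO at 52.2%. With the 4 lists at equal length, SHP1705 still had a peak at 38 members.

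SHP1705 had 137 peaks at members, MG132 50, the combination 40 and DMSO 30. Per 100 kb of gene and flank this made 6.74, 2.46, 1.97 and 1.48 peaks, against 4.17, 2.29, 1.80 and 1.49 at all protein-coding genes. SHP1705 alone had the most peaks at 26 members, tied for the most at 9, and was passed at 4 by another list (CCND1, TYMS, RRM2 and BUB1B). A typical member had 3 SHP1705 peaks and 1 in each other list. Neither the ranking of lists gene by gene nor the typical count was computed over all protein-coding genes. SHP1705 peaks were also the densest there, so the lead of SHP1705 at most members is not read as a trait of this group. CDK6, the longest member at 232 kb, had the most in SHP1705 with 12, and RRM2 had the most in the combination with 6.

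Related genes outside the list were nearer to the background in the density of SHP1705 peaks. Of 33 further cell cycle genes, among them CDC45, the GINS subunits, ORC1, CHEK1, KIF11, FOXM1 and the CDK inhibitor genes CDKN1A and CDKN1B, SHP1705 peaks lay at 32 (97.0%, 84.7 to 99.5), against 88.4% of all genes. MG132 peaks lay at 21 (63.6%, against 71.3%), combination peaks at 18 (54.5%, against 64.0%) and DMSO peaks at 15 (45.5%, against 58.8%). The 33 genes had 4.70 SHP1705 peaks per 100 kb, against 6.74 at the members and 4.17 at all genes. They were longer than the members, with a median of 28.8 kb against 16.5 kb, and densities were not matched for length. In DMSO, MG132 and the combination they had 1.37, 2.48 and 1.64 peaks per 100 kb. The members had 1.48, 2.46 and 1.97 there, and all genes 1.49, 2.29 and 1.80. Their SHP1705 peaks lay within 1 kb of a gene end in 30.3% of cases (21.8 to 40.5), against 17.9% at all genes.

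The G1/S and G2/M genes did not differ detectably in how many had a peak. In DMSO 12 of 21 G1/S and 9 of 18 G2/M genes had one, a difference of 7.14 percentage points with a Newcombe 95% interval of -22.2 to 35.0. In MG132 the counts were 14 and 13 (difference -5.56, interval -31.8 to 22.6), and in the combination 11 and 11 (-8.73, -36.0 to 20.9). Both groups were complete in SHP1705. Genes of 1 phase are not replicates of a condition, so these intervals describe counting error over genes only. In SHP1705 the median of the tallest peak was 10.9 FPM for G1/S and 5.11 FPM for G2/M genes, and MG132 had the same order with 8.06 and 4.58 FPM. DMSO had the other order with 5.86 and 9.39 FPM, as did the combination with 6.64 and 9.28 FPM. The order of the phases thus was not the same in the 4 lists, and it was not tested.

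**Figure D2:**
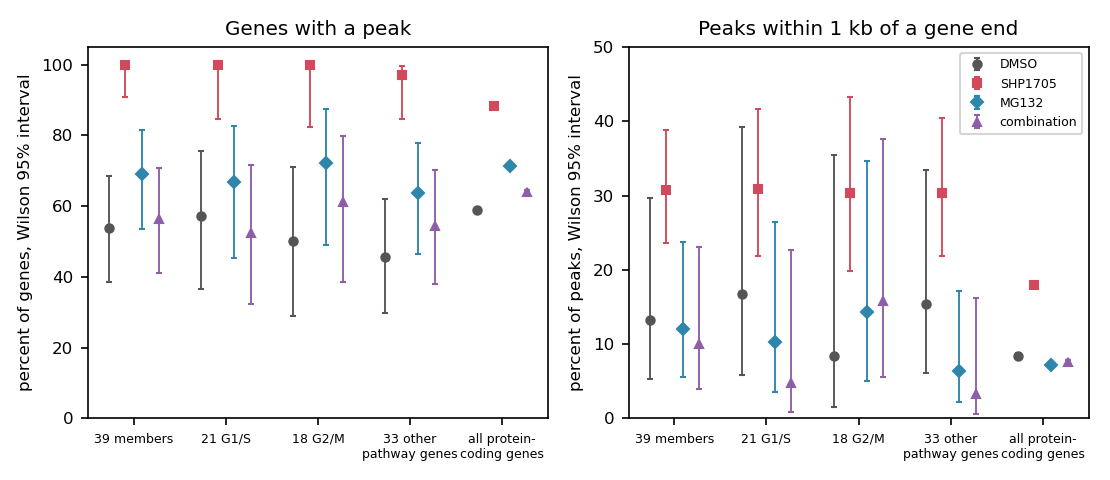
Left, percent of genes with at least 1 peak inside or within 10 kb. Right, percent of peaks whose summit lay within 1 kb of a gene end. Points are the 4 libraries and bars are Wilson 95% intervals, for all members, G1/S and G2/M members, 33 other pathway genes and all 19974 protein-coding genes. SHP1705 stands above the other lists in every gene group on both axes.

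The place of the peaks differed between SHP1705 and the other lists. Of the 137 SHP1705 peaks, 42 lay within 1 kb of a gene end (30.7%, 23.6 to 38.8), where 7.68% of the searched sequence lies that close to an end. At all protein-coding genes 17.9% of SHP1705 peaks lay there, and 4.66% of the sequence. DMSO had 4 of 30 at a gene end (13.3%, 5.31 to 29.7), MG132 6 of 50 (12%, 5.62 to 23.8) and the combination 4 of 40 (10.0%, 3.96 to 23.1), against 8.40%, 7.17% and 7.53% at all genes. By member, 28 of 39 had a SHP1705 peak at an end, against 49.8% of all genes. The other lists had 4 (DMSO), 6 (MG132) and 4 (combination), against 10.2%, 13.2% and 11.0%.

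Most of the SHP1705 gene-end peaks lay at the 3′ end of the gene. The strand was known from the promoter table for 31 members, and 21 of these (67.7%, 50.1 to 81.4) had a SHP1705 peak within 1 kb of the 3′ end, against 37.0% of 15813 genes of known strand. At the 5′ end 9 of 31 had one (29.0%, 16.1 to 46.6), against 26.6%. The 23 peaks at 3′ ends were taller and wider than the 10 at 5′ ends, with medians of 5.07 against 1.38 FPM and 755 against 373 bp. Of the 23 summits, 18 lay inside the gene, between 197 and 927 bp before its end with a median of 446 bp. In 8 of the 23 the summit also lay in another protein-coding gene, such as ELOVL1 next to CDC20 and COPS6 next to MCM7. Without exon coordinates in the table used here, the part of the transcript under a peak was not determined. The reporter RNA was poly(A)-selected and amplified by PCR, per the labels, and RNA from the genes themselves was not measured separately, so the part of such RNA in these peaks was not tested.

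**Figure D3:**
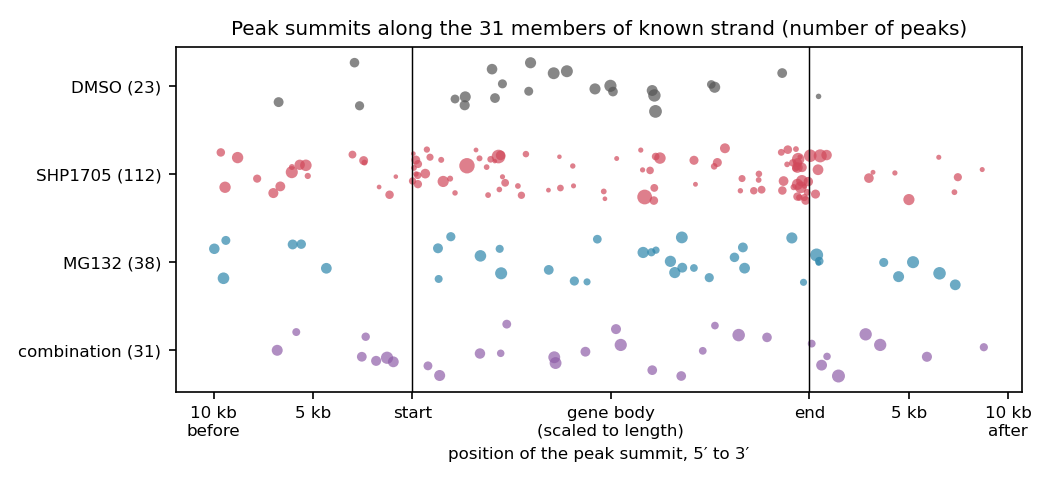
Summits of all peaks at the 31 members of known strand, in kb before the start and after the end and as a fraction of the gene body between them (horizontal axis, 5′ to 3′), in 1 row per library. Each dot is 1 peak, its area grows with its pileup in FPM, and the height within a row is random. The SHP1705 row is dense just before the gene end, which the DMSO, MG132 and combination rows are not.

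Member peaks of the other 3 lists were narrower than those of SHP1705 and had higher folds, which was also so at all protein-coding genes. The fold of a peak is its pileup over the local background of the library, as the peak caller gave it. For a lone pile it cannot much exceed 10000 bp divided by the fragment size, or about 28.9 for DMSO and 28.2 for both lists with MG132. DMSO member peaks had a median fold of 24.1, MG132 peaks 15.7 and combination peaks 19.8, against 23.9, 19.8 and 22.5 at all genes. SHP1705 peaks had 6.66, against 5.32 at all genes, where the bound is 33.4. Folds of 20 or more were reached by 21 of 30 DMSO peaks, 18 of 50 MG132 peaks and 19 of 40 combination peaks. Of peaks that no SHP1705 peak overlapped, 17 of 20, 16 of 40 and 18 of 32 had such folds. At all genes the shares of these peaks were 70.9%, 53.3% and 64.6%. Of peaks that a SHP1705 peak overlapped, 4 of 10, 2 of 10 and 1 of 8 had such folds. At all genes those shares were 29.3%, 25.4% and 29.2%. Widths had medians of 420.5, 457 and 420 bp in the 3 lists and 602 bp in SHP1705, against 424, 429, 429 and 489 bp at all genes. SHP1705 had 38 of 137 peaks of 1000 bp or more (27.7%), DMSO 2 of 30, MG132 3 of 50 and the combination 1 of 40, against 24.3%, 2.79%, 2.63% and 2.42% at all genes.

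Places held by more than 1 list were about as rare at members as at other genes. Merging overlapping peaks gave 224 regions at the members, of which 200 (89.3%, 84.6 to 92.7) had a peak in 1 list, against 91.6% of the regions at all protein-coding genes. A peak in 2 lists was found in 18 regions (8.04%, against 6.13%), in 3 lists in 4 (1.79%, against 1.0%) and in all 4 in 2 (0.893%, against 1.26%). The 2 in all lists were at the end of CCND1 and at a pseudogene near CDK2. The 4 in 3 lists were at CDC20, AURKA, MCM7 and MKI67. Although 12 members had a peak in every list (30.8%, against 36.9% of all genes), 10 of these 12 had no place that all 4 lists shared. Over all genes 7362 had a peak in every list, and only 1854 regions were held by all 4. The lack of a shared place is thus not read as a trait of the members. The 4 members with peaks in SHP1705 alone, CDK4, CDC25A, MCM3 and CENPA, made 10.3% of members, against 7.54% of all genes.

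A DMSO peak overlapped a SHP1705 peak in 10 of 30 cases (33.3%, 19.2 to 51.2), an MG132 peak in 10 of 50 (20%, 11.2 to 33) and a combination peak in 8 of 40 (20%, 10.5 to 34.8). The shares at all protein-coding genes were 18%, 14.7% and 15.1%. The DMSO peaks that overlapped had a median fold of 14.9, and 4 of 10 lay at a gene end. The 20 that did not overlap had a median fold of 24.6, and 0 of 20 lay at a gene end. At all genes the same split gave median folds of 10.2 and 24.6, and 26.1% and 4.53% at gene ends.

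**Figure D4:**
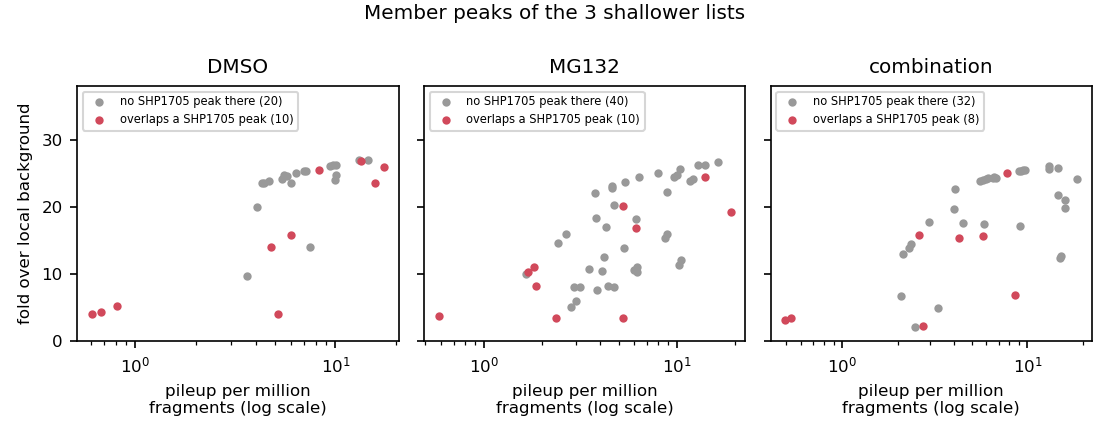
Fold over local background (vertical axis) against pileup in FPM (horizontal axis, log scale) for every member peak of DMSO, MG132 and the combination, with peaks that overlap a SHP1705 peak in red. The lowest peaks, under 1 FPM with folds below 6, all overlapped a SHP1705 peak, and many of the rest sit near the upper bound of the fold.

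At the 10 DMSO peaks that a SHP1705 peak overlapped, heights in FPM were mostly far apart. SHP1705 was at least 2-fold higher at 5 of them (AURKA, CCND1, CDC20, CDK2 and MCM4) and at least 2-fold lower at 4 (CDC6, CENPF and 2 in MKI67), with E2F1 level. At all 3133 such DMSO peaks near protein-coding genes, 57.2% were at least 2-fold higher in SHP1705 and 34.2% at least 2-fold lower. The ratios of the 5 ran from 16.7 to 33.8, and those of the 4 from 0.101 to 0.405. Overlapping peaks need not share a summit. Summits lay 5287 bp apart in 1 MKI67 pair and 703 bp apart at AURKA, and the peaks of the other MKI67 pair overlapped by 38 bp with summits 484 bp apart. Among the 8 pairs with summits within 500 bp, a limit chosen after seeing the data, 4 were at least 2-fold higher and 3 at least 2-fold lower, against 58.1% and 34.8% at all genes. MG132 overlapped 6 DMSO member peaks with ratios from 0.119 to 1.29, and 0 of these were 2-fold higher and 2 were 2-fold lower, against 8.99% and 16.9%. The combination overlapped 5 with ratios from 0.656 to 1.66, none past 2-fold either way, against 9.44% higher and 12.5% lower.

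Among the G1 cyclins and their kinases, CCND1 and the neighbourhood of CDK2 carried the tallest peaks of all members. CCND1 encodes cyclin D1, which activates CDK4 and CDK6. Toward its right-hand end (chromosome 11, 69651229 to 69654354 in SHP1705) it had a peak of 20485 fragments and 3126 bp in SHP1705. In the same place DMSO had 154 fragments, MG132 143 and the taller of the combination's peaks 244. As FPM these were 173, 5.18, 5.24 and 8.61, so SHP1705 stood 33.4 times above DMSO while MG132 was level with it. A further SHP1705 peak at the other end of CCND1 reached 7968 fragments, or 67.3 FPM. By its tallest peak CCND1 ranked 202 of the 17651 genes with a SHP1705 peak.

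CDK2 encodes the kinase partner of cyclins E and A. The tallest peak counted for it lay outside it, inside RAB5B and on the pseudogene LOC100131294, at chromosome 12, 55980184 to 55981069. There SHP1705 had 18997 fragments, DMSO 141, MG132 167 and the combination 121, or 161, 4.74, 6.12 and 4.27 FPM. At CDK2 itself SHP1705 had 875 and 1006 fragments at its left and right ends, and the other lists had no peak inside the gene. CDK4, a kinase of cyclin D, had 5 peaks in SHP1705, the tallest with 1939 fragments beside its 3′ end in TSPAN31, and none in the other lists. At CDK6 the SHP1705 list had 12 peaks, the DMSO list 2, the MG132 list 1 and the combination list 3, with tallest values of 3.69, 4.37, 1.65 and 7.80 FPM.

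The cyclin E genes had low SHP1705 peaks. CCNE1 reached 1.22 FPM in SHP1705, at its 3′ end, and 2.29 in the combination, inside the gene, with none in DMSO or MG132. At CCNE2 the tallest SHP1705 peak had 1.78 FPM. Outside it, in the neighbours NDUFAF6 and INTS8, DMSO reached 7.50, MG132 2.42 and the combination 5.86 FPM. CDC25A, a phosphatase that activates CDK2, had peaks in SHP1705 alone. Its tallest, 2724 fragments in 309 bp with a fold of 32.0, lay on the pseudogene NDUFB1P1 within the gene.

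The E2F and RB genes showed 1 place held by both DMSO and SHP1705 at like heights. E2F1 encodes an activating E2F factor, and its 3′ end (chromosome 20, 33675778 to 33677275 in SHP1705) had 178 fragments in DMSO and 704 in SHP1705, or 5.99 and 5.95 FPM. E2F1 had no MG132 peak, and its 1 combination peak, 6.64 FPM, lay elsewhere. E2F2 had a tallest peak of 0.727 FPM in SHP1705, 16.2 in MG132, 6553 bp past the gene end, and 4.02 in the combination. RB1 encodes the retinoblastoma protein. Its tallest SHP1705 peak, 4352 fragments or 36.8 FPM, lay on the pseudogene PCNPP5 in the gene, and its 3′ end had 614. DMSO reached 5.72, MG132 12.8 and the combination 9.74 FPM at RB1, each at a different place.

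The products of the licensing genes load and form the MCM helicase at replication origins, and PCNA acts at the fork. Of these 9 genes (CDC6, CDT1, MCM2 to MCM7 and PCNA), SHP1705 had a peak at 9, against 88.4% of all genes. MG132 had one at 6 (66.7%, 35.4 to 87.9), against 71.3%, and DMSO at 4 (44.4%, 18.9 to 73.3), against 58.8%. The combination had one at 2, MCM7 and PCNA (22.2%, 6.32 to 54.7), against 64.0%. With 9 genes, and with this role 1 of 8 looked at, nothing is read from that count. MCM3 had 1 peak in all, with 1373 fragments in SHP1705 at 391 bp before its 3′ end. MCM2 had 600 at its 3′ end in SHP1705, and 128 and 273 fragments inside the gene in MG132. At MCM4 the right-hand end of the gene had 1333 fragments in SHP1705 and 20 in DMSO, or 11.3 and 0.673 FPM, and no peak in MG132 or the combination. MCM6 reached 4.27 FPM in SHP1705 and 13.9 in MG132, at different places.

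MCM7 lies among close neighbours, and 1 place near it was held by 3 lists. It lay in AP4M1, where SHP1705 had 1657 fragments, MG132 143 and the combination 74, or 14.0, 5.24 and 2.61 FPM. MCM5 had its tallest SHP1705 peak, 1293 fragments, in the neighbouring HMOX1, a stress gene, and within MCM5 DMSO and MG132 shared a place with 161 and 80 fragments. CDC6 had 245 fragments in DMSO and 155 in SHP1705 at 1 internal place, or 8.24 and 1.31 FPM. CDT1 had 1215 fragments in SHP1705 and 379 in MG132 in the neighbouring GALNS. PCNA, the sliding clamp of replication forks, had a tallest SHP1705 peak of 31.3 FPM, while DMSO reached 9.96, MG132 2.68 and the combination 14.7 FPM. Its SHP1705 peaks, with 3698 and 1522 fragments, lay inside the gene, while the tallest combination peak lay in CDS2.

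Of the genes for nucleotide supply, RRM2 had peaks in all 4 lists and TYMS in 3. TYMS encodes thymidylate synthase. At its 3′ end SHP1705 had 1845 fragments and MG132 515, or 15.6 and 18.9 FPM, in overlapping peaks with summits 812 bp apart. Both summits lay in the neighbouring gene ENOSF1. The SHP1705 summit was also inside TYMS, while the MG132 summit lay 363 bp past the end of TYMS. That MG132 peak was the tallest counted for any member in its list. TYMS had 5 peaks in MG132, 2 in DMSO and 2 in SHP1705, and none in the combination. RRM2 encodes the small subunit of ribonucleotide reductase. DMSO and the combination shared 1 internal place in it (chromosome 2, 10153786 to 10154341) with 388 and 370 fragments, or 13.1 FPM in both. The tallest RRM2 peak was 10.3 FPM in SHP1705 and 11.7 in MG132, at other places.

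Of the 19 SHP1705 peaks at the mitotic cyclins and the CDK1 switch, 8 lay at gene ends (42.1%, 23.1 to 63.7). The share was 30.7% at all members and 17.9% at all genes. In this role 9.82% of the searched sequence lies that close to an end, against 4.66% at all genes. With 6 genes, and with this role 1 of 8 looked at, nothing is read from that share. The 8 peaks were at CCNA2, CCNB1, CDK1 and WEE1. CCNB2 and CDC25C had no SHP1705 peak at an end. CCNA2, cyclin A2, had 429 fragments at its 3′ end and 685 just after its start in SHP1705, 1 MG132 peak of 117 in BBS7, and none in DMSO or the combination. CCNB1, cyclin B1, reached 1.19 FPM in SHP1705, at its 3′ end. The tallest combination peak of any member, 528 fragments or 18.6 FPM, lay 1464 bp past its end. At CCNB2 the tallest DMSO peak had 10.1 FPM, that of SHP1705 3.43, that of MG132 10.4 and that of the combination 2.36, at 4 different places. CDK1, the mitotic kinase, had 395 fragments at its 3′ end in SHP1705 and 256 before its start in the combination. CDC25C, which activates CDK1, and WEE1, which inhibits it, each had MG132 peaks inside the gene, of 125 and 126 fragments, at places where SHP1705 had none. At another place inside CDC25C DMSO had 279 fragments, or 9.39 FPM against 4.58 in MG132. The tallest SHP1705 peak counted for CDC25C, 1291 fragments, lay in FAM53C, and those inside the gene had 143 and 33.

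The genes of mitotic kinases and survivin had their tallest SHP1705 peak outside the member in 3 of 4 cases. AURKA had 2753 fragments in SHP1705, 24 in DMSO and 15 in the combination at chromosome 20, 56366131 to 56368561, in the neighbouring FAM210B. As FPM these were 23.3, 0.808 and 0.529. The tallest combination peak counted for AURKA, 263 fragments or 9.28 FPM, lay at another place in FAM210B. MG132 had peaks inside AURKA, the tallest with 145 fragments or 5.31 FPM, and a peak of 115 fragments in FAM210B. AURKB had 87, 57 and 93 fragments in SHP1705, at its 3′ end, inside and before its start, and 193 in the combination. PLK1 had its tallest SHP1705 peak, 1284 fragments, in DCTN5, with 329 just after its start and 527 just past its 3′ end, and 241 inside the gene in MG132. BIRC5, which encodes survivin, had 1084 fragments in SHP1705 and 14 in the combination at 1 place inside it (chromosome 17, 78223500 to 78225070), or 9.16 and 0.494 FPM. Its tallest combination peak, 454 fragments, lay in TMEM235.

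Of the spindle checkpoint genes, CDC20 had 1 place that SHP1705, DMSO and MG132 shared. CDC20 activates the anaphase-promoting complex. Just past its 3′ end (chromosome 1, 43363491 to 43364464), in ELOVL1, SHP1705 had 2256 fragments, DMSO 18 and MG132 16, with no combination peak. As FPM these were 19.1, 0.606 and 0.586, a ratio of 31.5 for SHP1705 over DMSO and of 0.968 for MG132 over DMSO. BUB1, a checkpoint kinase, had the other order, with 14.5 FPM in DMSO inside the gene and 0.456 in SHP1705 at its 3′ end. Beside BUB1, DMSO and the combination had peaks of 165 and 169 fragments that overlapped by 69 bp, with summits 368 bp apart. BUB1B had 1 SHP1705 peak, 162 fragments or 1.37 FPM at its 3′ end. DMSO had 206 fragments inside BUB1B, or 6.93 FPM. MG132 had 147 inside it and 218 before its start, or 5.39 and 7.99 FPM. MAD2L1 had 419 fragments in SHP1705 and 369 in the combination at different internal places, and 96 in MG132 at its 3′ end.

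Among genes of chromosome structure, MKI67 and CENPF carried the tallest DMSO peaks. CENPF encodes a kinetochore protein. At chromosome 1, 214640592 to 214641025, DMSO had 520 fragments, the tallest of any member in that list, and SHP1705 had 292 there, or 17.5 and 2.47 FPM. MKI67 encodes the proliferation marker Ki-67. DMSO and MG132 shared a place in it with summits 117 bp apart, of 466 and 51 fragments, or 15.7 and 1.87 FPM. A SHP1705 peak of 6231 bp (chromosome 10, 128102707 to 128108937), the widest of any member, spanned that place, but its summit, with 751 fragments or 6.35 FPM, lay 5287 bp from the DMSO summit. TOP2A, which encodes topoisomerase II alpha, had 1234 fragments at its 3′ end in SHP1705, 453 and 413 inside the gene in the combination and none in DMSO. CENPA, the centromeric histone, had peaks in SHP1705 alone, with 170 fragments at its 3′ end and 1390 in SLC35F6.

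**Figure D5:**
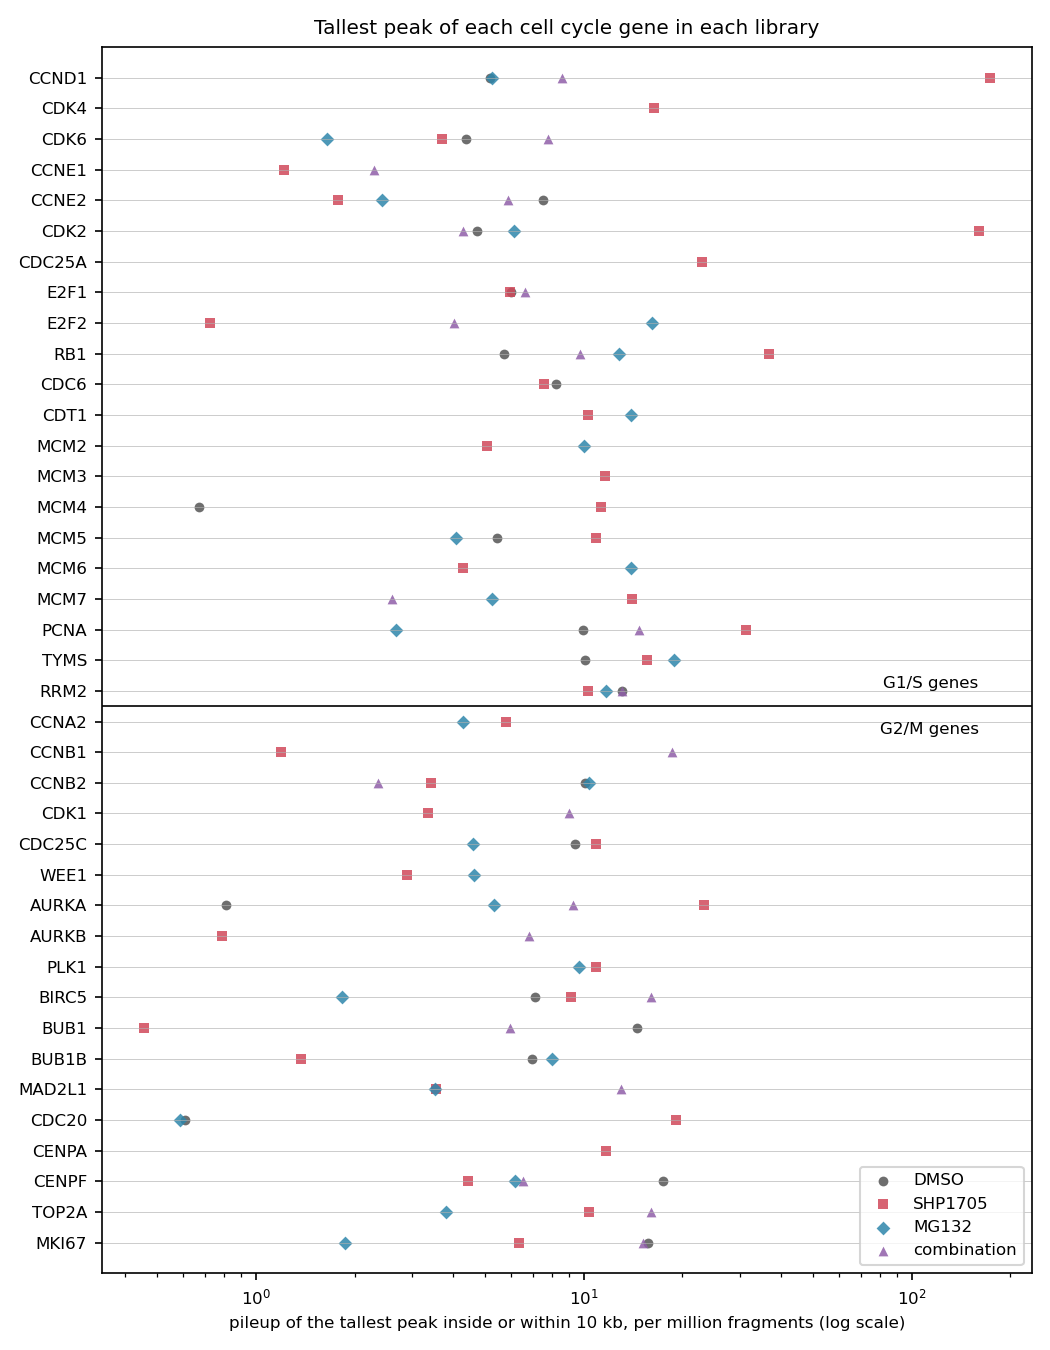
Pileup in FPM (horizontal axis, log scale) of the tallest peak inside or within 10 kb of each of the 39 members, by library, with the G1/S members above the line and the G2/M members below. A missing symbol means no peak in that list. CCND1 and CDK2 in SHP1705 stand at 173 and 161, and all DMSO, MG132 and combination values lie below 20.

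When each gene's tallest peak was taken wherever it lay, the members' median ratios to DMSO stayed within 2-fold on the FPM scale. The median ratio of SHP1705 over DMSO was 1.16 over the 21 members with a peak in both lists, against 0.609 over 10935 genes, and 0.785 where only peaks inside the member counted. It depended on the scaling, at 4.63 on raw pileups and 11.9 with each list divided by its median pileup. At least 2-fold higher were 8 of 21 members (38.1%, against 27.1% of all genes) and at least 2-fold lower 6 (28.6%, against 45.9%). For MG132 the median was 0.893 over 17 members (0.796 over all genes), with 2 higher (against 14.2%) and 7 lower (against 28.8%), and 1.32 with each list divided by its median pileup. For the combination it was 1.05 over 14 members (0.910 over all genes), with 2 higher (against 18.2%) and 3 lower (against 21.5%). All 3 comparisons share the DMSO library, and most pairs of peaks lay at different places.

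Many of the tallest peaks counted for members lay outside them. The tallest SHP1705 peak lay inside the member for 26 of 39, the tallest MG132 peak for 15 of 27, the tallest combination peak for 10 of 22 and the tallest DMSO peak for 17 of 21. The same share over all genes was not counted. Over all peaks, 47.5% of combination summits lay inside the member (32.9 to 62.5), against 73.4% at all protein-coding genes. DMSO had 76.7% inside (59.1 to 88.2), SHP1705 70.1% (61.9 to 77.1) and MG132 62.0% (48.2 to 74.1), against 72.8%, 72.2% and 73.3%. Members were shorter than other genes, with a median of 16.5 kb against 24.2 kb and the same 10 kb flanks. More of their searched window thus lay outside the gene, and these shares were not matched for length.

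Pseudogenes named for a member, which are for the most part intronless copies of its mRNA, also carried SHP1705 peaks. The table held 20 such copies of 12 members, and SHP1705 peaks overlapped 9, MG132 peaks 3, DMSO peaks 2 and combination peaks 1. The share of all annotated pseudogenes with a peak was not counted, so these counts are not read as a trait of copies of members. PCNAP3 on chromosome X (46058552 to 46059657) had a peak in all 4 lists, of which SHP1705 had 4469 fragments, DMSO 31, MG132 41 and the combination 33. As FPM these were 37.8, 1.04, 1.5 and 1.16, so the SHP1705 value stood above that of PCNA itself, 31.3. RRM2P3 had 1463 fragments in SHP1705 and 15 in MG132, MAD2L1P1 1389 in SHP1705, and CDC20P1 920 in SHP1705 and 17 in DMSO. WEE1P2 had 329 in MG132 alone. How fragments that match both a gene and its copy were placed is not given in the sources used here, so heights at genes with copies and at the copies are uncertain.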

How the data were processed

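Reads were processed by the authors against hg38. The tools listed in the submitters' processing notes are MACS2, Bowtie2, Trimmomatic and FastQC. Their versions, apart from MACS, are not given in the sources used. MACS 2.2.6 called peaks in each library alone per the file headers, at a q limit of 0.01, with duplicates kept and no control. The deposited signal is the pileup at the summit, unscaled for depth. The fold is the deposited ratio of pileup to local background, and the −log10 p-value and −log10 q-value are the caller's as deposited. These rank or filter peaks within a list. Widths in bp were taken as deposited.

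From these files, pileups were divided by the fragments in the header. Summits were paired with genes of RefSeq GRCh38.p14, whose primary chromosomes have hg38 coordinates, using Python 3.11.15 and pandas 2.3.3. With 1 library per treatment no test was run. Wilson 95% intervals are given for shares. They describe counting error alone, as PCR duplicates are not independent molecules. Pairing and placing were tested on simulated peaks. The members and gene lists were chosen with earlier results of these data known. Named genes were members in 3 or 4 lists or in SHP1705 alone, the 5 tallest per list, neighbours that hold a counted summit and copies of members, while all other members were accounted for by role. Sequence was taken from the RefSeq promoter table, where a start lay within 1 kb of the annotated gene end, and strand was known for 31 members. The alternatives tried were other windows, stricter q, equal list length, a common minimum width, other scaling and other gene-end distances.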

Additional observations from a re-analysis of the deposited data

How the results depend on the processing

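Of 111 values recomputed under the alternatives, 98 stayed within 1.5 times the reported count, median or ratio, or within the interval of the reported share, and 13 did not. Some of the 98 could not move. The cut to 49863 peaks left the DMSO list whole, and the common minimum width of 355 bp left the combination list whole. The median tallest peak divided by the list's median pileup was scaled back to FPM before it was compared. These values say nothing about stability. Counting only summits inside the gene gave 11 members with a combination peak, 31 MG132 summits and 19 combination summits, and a median tallest SHP1705 peak of 4.27 FPM. Lists cut to 49863 peaks gave 32 MG132 summits, of which 3.12% were at gene ends. Gene ends of 500 bp gave shares of 3.33% in DMSO, 20.4% in SHP1705 and 2.50% in the combination, and gene ends of 2 kb gave 40.1% in SHP1705 and 25% in the combination. The median SHP1705 to DMSO ratio of tallest peaks was 11.9 after division by each list's median pileup and 4.63 unscaled. The phase comparison stayed within its intervals in all 24 alternatives, including 4 without CCNA2, WEE1, CCND1, CDK4, CDK6 and RB1. The intervals are wide, so this shows little about stability. Without those genes the difference in percentage points went from 7.14 to -3.31 in DMSO and from -8.73 to -21.7 in the combination. It went from -5.56 to -4.04 in MG132 and stayed at 0 in SHP1705. No paired analysis was possible because each treatment had 1 library. The lowest height that could be called was 0.237 FPM in SHP1705 and 0.424 to 0.440 elsewhere, so lower peaks were not detectable.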
